A study of Mus musculus with 2 samples.

Results

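Rbpj and 7 genes whose products act with it or resemble it in the nucleus were followed in ureters of newborn mice that lack Rbpj in the Tbx18 lineage. The set holds the deleted DNA-binding factor (Rbpj), its paralogue (Rbpjl), the mastermind-like coactivators (Maml1, Maml2, Maml3), the acetyltransferase coactivator Ep300, the corepressor Spen and the deacetylase Hdac1. The probes of the 8 genes were found by gene name in the annotation of the array. They number 8 of 29924 names on the array and are covered by 15 of its 39429 probes, each printed as 4 spots. Of the 15 probes, 14 passed the filter on dim probes (more than 50% of spots well above background on both arrays in at least 1 genotype), and all 8 genes kept at least 1 probe.

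Total RNA of dissected ureters at postnatal day 4 was compared on 2 two-colour arrays, each pairing an Rbpj-cKO RNA with a control RNA. Rbpj-cKO mice were Tbx18(cre/+);Rbpj(fx/fx), with 1 Tbx18 allele carrying the Cre recombinase and both Rbpj alleles floxed. Controls were Tbx18(+/+);Rbpj(fx/n.d.), so they had 1 floxed Rbpj allele and another that was not determined, and no Cre. The Tbx18 allele with Cre and the loss of Rbpj thus differed together on both arrays, and their effects cannot be told apart. All mice were of the NMRI strain. Array 1 held a pair labelled female with the Rbpj-cKO RNA in red, and array 2 a pair labelled male with the dyes exchanged. Labelled sex, dye orientation and pair therefore changed together and cannot be told apart. No source used here gives the number of animals behind each RNA, so p-values rest only on these 2 pairs. The test (limma) draws each probe's spread between the pairs towards a value common to all probes. Recombination is limited to cells that have expressed Tbx18, so other cells of the ureter keep intact Rbpj alleles. In such bulk RNA, fewer cells of a type and less RNA per cell cannot be told apart.

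Rbpj, also called CSL, binds DNA at Notch target genes whether or not Notch is active. Without a signal it is bound by corepressors, among them Spen, which brings histone deacetylases such as Hdac1. When a Notch receptor is cleaved, its intracellular domain enters the nucleus, joins Rbpj and a mastermind-like protein, and recruits the acetyltransferase Ep300 to switch the target on. Rbpjl resembles Rbpj but works in the acinar cells of the pancreas and does not respond to Notch.

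Both arrays were of similar quality, with 71.8% to 74.0% of gene spots well above background in each channel and 0 saturated spots. Markers of the tissue were present: all 7 smooth muscle and all 7 urothelium markers were measured. So were 6 of 7 markers of ureteric mesenchyme and stroma, where Tbx20 did not pass the filter. Of the smooth muscle markers 5 were lower in the Rbpj-cKO RNA on both arrays and 0 higher. Their median log2 ratio of Rbpj-cKO over control was -0.10 on array 1 and -0.36 on array 2. Among urothelium markers 0 were lower on both arrays and 4 higher (median 0.51 on array 1, 0.08 on array 2). Among mesenchyme and stroma markers 1 was lower and 3 higher (0.22 and 0.10). Over all genes 29.8% were lower and 31.8% higher on both arrays. On array 1, labelled female in both channels, the Y-linked gene Ddx3y had a normalized log2 intensity of 11.3 in the Rbpj-cKO RNA and 7.09 in the control RNA, against 12.9 and 13.5 on array 2. Xist, from the inactive X, was detected in both RNAs of array 1 and in neither of array 2. The Rbpj-cKO RNA of array 1 thus held signal of both Xist and Ddx3y, which goes against its female label. Array 2 alone gives the value without this RNA for every result below. Other tissues also differed between the RNAs. All 8 adipocyte markers had lower values in the Rbpj-cKO RNA on both arrays. The log2 of their summed intensities was 16.6 and 16.8 in the Rbpj-cKO RNAs and 19.4 and 17.9 in the controls. Such a sum weighs the brightest marker most, and the tissues that follow are given in the same way. Of 6 measured kidney epithelium markers 5 were higher on both arrays (11.4 and 10.8 against 10.3 and 10.4), and 5 of 5 measured liver markers were higher on array 1 and lower on array 2 (13.2 and 13.0 against 12.6 and 15.6). All 4 skeletal muscle markers were lower on both arrays (15.5 and 15.6 against 15.8 and 15.8). Their mean ratios ran from -1.38 (Myh8) to -0.15 (Acta1, the brightest). Of 4 mesothelium markers 3 were higher on both arrays (13.2 and 12.3 against 12.3 and 12.2). The kidney marker Slc12a1 did not pass the filter, and the other 6 kidney markers were dim, with the highest level at 9.27 (Lrp2, Rbpj-cKO RNA of array 1). The part of these tissues in the results on the member genes was not tested.

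The probes are 60 bases long. The sequences that follow are those of the genes with more than 1 probe where the probes lie far apart, since their agreement is what the results turn on. All are in lower case, 5′ to 3′ in the sense of the transcript, with mm9 coordinates from the array files. The Rbpj probe nearer the start of the transcript is given whole, and of the others the first 30 bases are given.
Rbpj A_55_P2022524 (chr5:54044777-54044836, plus strand, transcript position 1682): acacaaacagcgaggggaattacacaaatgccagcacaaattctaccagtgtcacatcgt
Rbpj A_66_P139267 (chr5:54048503-54048562, plus strand, position 5408): tttgtagaaaaaggaatctgctcaattcca
Rbpjl A_55_P1988689 (chr2:164236749-164236808, plus strand, position 1130): cttaagggaacagtgttgccccctggagga
Rbpjl A_52_P574759 (chr2:164240195-164240254, plus strand, position 1702): gagcaggaaggagagagatagctcacctga
Maml2 A_55_P2083197 (chr9:13424194-13424253, plus strand, position 364): aggaaggctagcaaacatgctaaggctaca
Maml2 A_51_P373696 (chr9:13511227-13511286, plus strand, position 3797): ttgggattgtttttccctgcctgaacttca
Maml3 A_55_P2147747 (chr3:51908102-51908161, minus strand, position 767): acttaaactattttaatccttggacccaag
Maml3 A_52_P47126 (chr3:51494490-51494549, minus strand, position 3497): ttgcagcattccaatcagagtggaatgggc
Maml3 A_55_P2182497 (chr3:51491665-51491724, minus strand, position 6322): ccaactaatagagtggtagattttaatgag
The Rbpj probes are 3726 bases apart both on the chromosome and in the transcript, so no intron lies between them, and the files match them to the same 4 RefSeq transcripts. Those of Maml3 at positions 767 and 3497 are 413612 bases apart on the chromosome and those of Maml2 87033 bases, so introns lie between these. Exon and UTR borders were not used here.

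Rbpj had the lowest ratios of the 8 members, and both of its probes were lower in the Rbpj-cKO RNA on both arrays. By its brighter probe, A_66_P139267, the log2 intensity was 12.8 and 12.6 in the Rbpj-cKO RNAs and 13.7 in both control RNAs. Both Rbpj-cKO values lay below both control values, and the control RNAs differed from each other by far less than either did from its partner. The log2 ratio of Rbpj-cKO over control was -0.92 on array 1 and -1.10 on array 2, which is 53.0% and 46.7% of the control level. The mean was -1.01 ± 0.13 (SD, n = 2), or 49.7% of control, with a 95% interval of 42.6% to 58.1% from limma. The adjusted p over all 28182 probes was 0.0934 in limma with Benjamini-Hochberg adjustment, so the difference did not pass the threshold of 0.05. Over 12 processing alternatives the limma adjusted p ranged from 0.0387 to 0.574. The lowest came with a prior variance that follows intensity (eBayes with trend and robust settings) and was the only value below 0.05.

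The spots within each array agreed closely. The 4 spots of A_66_P139267 ranged from -0.97 to -0.89 on array 1 and from -1.14 to -1.01 on array 2. The scanned signal before any correction averaged 8449 over the spots in the Rbpj-cKO channel (red) and 11304 in the control channel (green) on array 1, and 5272 (green) and 15875 (red) on array 2. The local background averaged at most 64 in a channel. These signals precede dye normalization, so their quotients on the 2 arrays are not comparable.

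The second Rbpj probe, A_55_P2022524, gave the same direction with a smaller size. Its log2 intensity was 10.1 and 9.73 in the Rbpj-cKO RNAs and 10.78 and 10.73 in the controls, again without overlap. Its ratio on arrays 1 and 2 was -0.68 and -1.003 (mean -0.84 ± 0.23, n = 2; limma 95% interval -1.12 to -0.57, adjusted p = 0.133), or 62.3% and 49.9% of control. The ratio at position 5408 was below the ratio at position 1682 by 0.23 on the log2 scale on array 1 and by 0.10 on array 2. Of the 12 processing alternatives 7 moved these values and 5 left them as they were. In those 7 the downstream probe was the lower one on both arrays, with mean levels of 48.8% to 50.9% of control there and 54.3% to 56.3% at the upstream probe. Within array 1 the spots of the 2 probes did not overlap (-0.76 to -0.62 against -0.97 to -0.89), while on array 2 they did (-1.11 to -0.92 against -1.14 to -1.01). Whether either probe lies in the part that Cre removes was not determined, so neither settles how much intact Rbpj RNA was left.

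Among all 28182 probes kept, the mean ratio of A_66_P139267 ranked 183 from the lowest and that of A_55_P2022524 ranked 259, the lowest 0.649% and 0.919% of probes. Both Rbpj probes were at least 1.5-fold lower on both arrays, as were 0.713% of all probes, and both passed an unadjusted p of 0.05 in limma, as did 7.24% of all probes in this direction. In the other direction 0 members were 1.5-fold higher (0.33% of all probes), 0 were past that size in opposite directions (0.0887%) and 0 passed the unadjusted p (6.42%). Over all probes 201 were past the size rule as lower and 93 as higher. With the scanner's own log ratio these counts were 339 and 289. By the adjusted threshold 0 member probes passed, beside 0.00355% of all probes. In the scatter of array 1 against array 2, the Rbpj probes stand away from the cofactor probes, which lie around the origin.

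**Figure D1:**
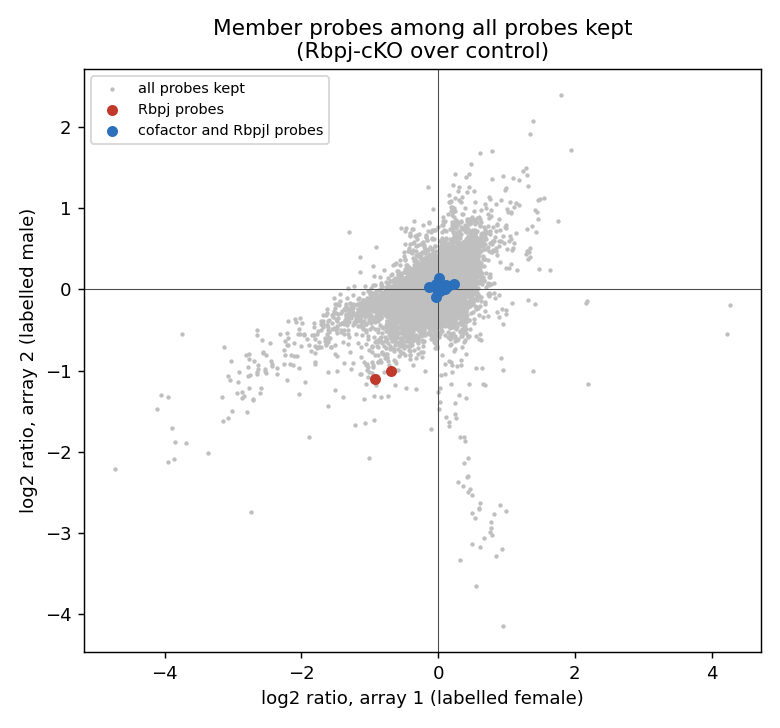
Each point is a probe, with its log2 ratio of Rbpj-cKO over control on array 1 (x axis) and array 2 (y axis); grey marks all 28182 probes kept, red the 2 Rbpj probes and blue the 12 probes of the other 7 genes. The red points lie at -0.68 and -0.92 on the x axis and -1.003 and -1.10 on the y axis, and every blue point lies between -0.13 and 0.23 on both axes.

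Rbpjl, the pancreatic paralogue, was close to background in every RNA and showed no higher level where Rbpj was low. By probe A_52_P574759 its log2 intensity was 6.75 and 6.76 in the Rbpj-cKO RNAs and 6.73 and 6.78 in the controls. The mean ratio was 0.0055 ± 0.03 (n = 2, limma 95% interval -0.19 to 0.20, adjusted p = 0.987). The scanned red and green signals were 108 and 56.9 on array 1, over local backgrounds of 64.8 and 26.5. Probe A_55_P1988689, matched in the files to an Ensembl transcript of the gene, was dim too, with 2 or 3 of its 4 spots well above background in each RNA, and had a mean ratio of 0.05 ± 0.07 (adjusted p = 0.848). It passed the filter through the Rbpj-cKO channel, since in the control RNA of array 2 only 2 of 4 spots were well above background. At such intensities the offset of 50 added before the logarithm pulls ratios towards 0, so these intervals bound the measured ratio and not the change in a rare RNA.

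**Figure D2:**
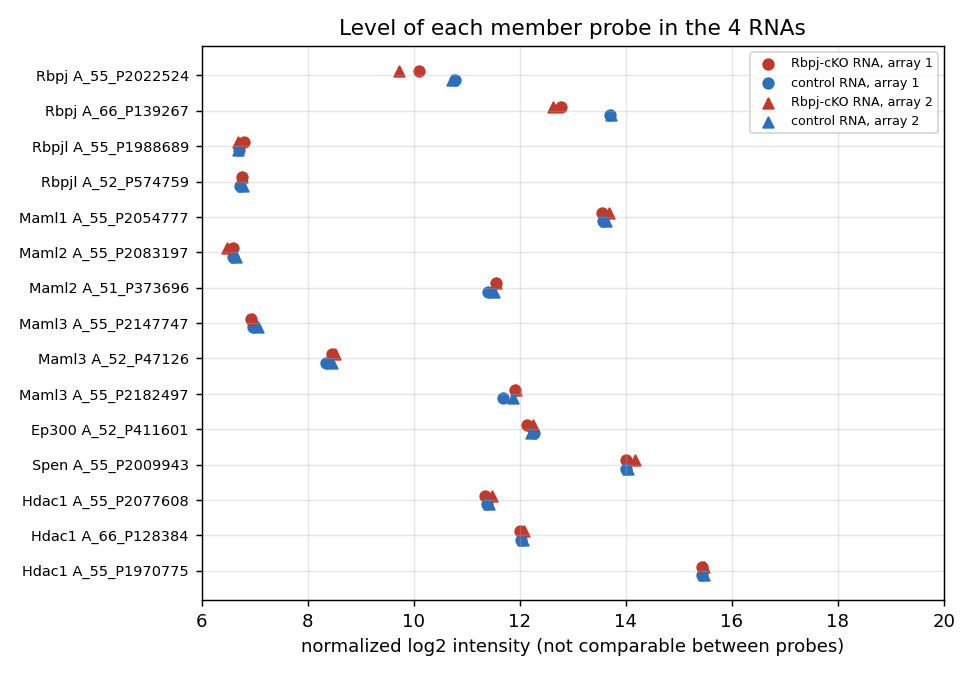
Normalized log2 intensity (x axis) of each of the 15 member probes (y axis) in the 4 RNAs, with Rbpj-cKO in red, control in blue, array 1 as circles and array 2 as triangles; levels may be compared within a probe only. The Rbpj-cKO symbols of both Rbpj probes lie to the left of the control symbols (12.8 and 12.6 against 13.7 for A_66_P139267), while those of the other probes nearly coincide.

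The mastermind-like coactivators, which clamp the Notch intracellular domain onto Rbpj, had ratios near 0 in the Rbpj-cKO RNA. Maml1 had a log2 intensity of 13.5 and 13.7 in the Rbpj-cKO RNAs and 13.6 in both controls, so the groups overlapped. The pairs gave -0.02 and 0.06 (mean 0.02 ± 0.06, n = 2, limma adjusted p = 0.942). The 95% interval spans 88.3% to 117% of the control level.

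Maml2 was measured by A_51_P373696, with 11.5 and 11.6 in the Rbpj-cKO RNAs and 11.4 and 11.5 in the controls. Both Rbpj-cKO values lay above both control values, by little. The pair on array 1 gave 0.15 and that on array 2 0.04 (mean 0.09 ± 0.07, adjusted p = 0.679, interval 92.7% to 123% of control). Its other probe, A_55_P2083197 near the start of transcript variant 1, is the one member probe that failed the filter. At most 1 of its 4 spots was well above background in any RNA.

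Maml3 had the highest mean ratio of the cofactors, and its probes did not agree in direction. Probe A_55_P2182497, at position 6322, had 11.9 in both Rbpj-cKO RNAs and 11.7 and 11.9 in the controls, with a ratio of 0.23 on array 1 and 0.07 on array 2. The mean of 0.15 ± 0.12 (n = 2, limma adjusted p = 0.518) had an interval from 95.4% to 129% of control, the widest on the upper side among the members. Probe A_52_P47126, at position 3497, had a mean ratio of 0.08 ± 0.04 (adjusted p = 0.708). The dim probe A_55_P2147747, at position 767, had -0.06 ± 0.04 (adjusted p = 0.788), with 1 spot left out on each array for an outlier flag and the remaining 3 scattered from -0.27 to 0.10 on array 1. The spots of A_55_P2182497 spanned 0.20 to 0.27 on array 1 and 0.01 to 0.10 on array 2, so the arrays differed by more than the spots of either.

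Ep300, which acetylates histones at active Notch targets, had a log2 intensity of 12.1 and 12.2 in the Rbpj-cKO RNAs and 12.3 and 12.2 in the controls. The pair on array 1 gave -0.13 and that on array 2 gave 0.03. Their mean was -0.05 ± 0.11 (n = 2, limma adjusted p = 0.855), with an interval of 83.1% to 112% of control. The spots lay between -0.15 and -0.10 on array 1 and between -0.03 and 0.07 on array 2.

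On the corepressor side, Spen had 14.0 and 14.2 in the Rbpj-cKO RNAs and 14.0 in both controls. The pairs gave 0.0079 and 0.14 (mean 0.07 ± 0.09, n = 2, adjusted p = 0.770 in limma, interval 91.0% to 122% of control). Hdac1 was covered by 3 probes within 342 bases of each other in the transcript, on the minus strand of chromosome 4. Their mean ratios were 0.01 ± 0.06 at position 1543, -0.00035 ± 0.02 at position 1732 and 0.0046 ± 0.0018 at position 1885, with adjusted p-values of 0.963 to 0.999. The brightest of them, A_55_P1970775, had 15.4 in both RNAs of array 1 and 15.5 in both RNAs of array 2. The 3 means lay between 99.98% and 101% of control, and their intervals together spanned 87.4% to 116%. The value of the brightest probe rests on the loess step: with plain median centring it was 0.28 on array 1 and -0.33 on array 2.

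**Figure D3:**
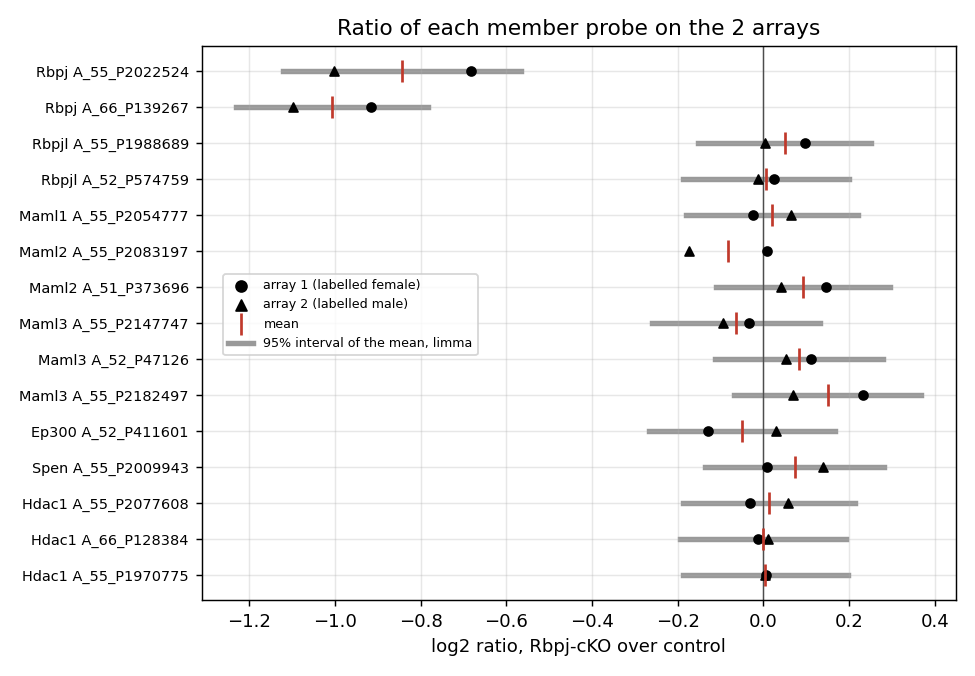
Log2 ratio of Rbpj-cKO over control (x axis) of each member probe (y axis), with array 1 as a circle, array 2 as a triangle, the mean as a red bar and limma's 95% interval of the mean in grey (none for the Maml2 probe that failed the filter). The intervals of both Rbpj probes end at -0.57 and -0.78, and those of the 12 other probes tested all include 0.

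Across the 12 tested probes of the 7 other genes, mean ratios ran from -0.06 to 0.15 with a median of 0.02, beside a median of -0.0044 over all probes. Their lowest adjusted p in limma was 0.518, and no interval reached below 83.1% or above 129% of the control level. Both Rbpjl probes and Maml3 A_55_P2147747 were dim, and there the offset pulls ratios towards 0. For those probes the bounds hold for the measured ratio only. Of the 12 probes, 6 were higher on both arrays, 1 was lower on both and 5 had opposite signs, beside 30.2%, 30.9% and 38.9% of all probes. Levels of the 2 Rbpj-cKO RNAs lay wholly above those of the 2 controls for 3 member probes (Maml2 A_51_P373696 and Maml3 A_52_P47126 and A_55_P2182497) and wholly below for 3 (both Rbpj probes and Maml3 A_55_P2147747), beside 20.8% and 21.2% of all probes. The counts of levels wholly apart are near the background. More of the 12 probes were higher on both arrays, and fewer lower, than among all probes, but the probes share genes and none passed the test. A p that misses the threshold does not show equal levels, and the intervals are what these 2 pairs allow.

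Further genes of the Rbpj complexes were read from a list of 32 nuclear cofactors, each by its brightest probe. The list also holds Nrarp, which is a Notch target too. All 32 were measured, 13 were lower on both arrays, 5 higher on both and 14 of opposite sign, where 29.8% of all 21150 genes were lower and 31.8% higher. The list's median was -0.02, against -0.00018 over all genes. Passing the adjusted threshold were 0 of 32, beside 0.00473% of all genes. At an unadjusted p of 0.05 limma gave 1 lower gene, Fhl1 (7.2% of all genes), and 1 higher gene, L3mbtl3 (7.12%). Fhl1 encodes a LIM-domain protein of muscle, of which a spliced form binds Rbpj and represses it. It had 12.7 and 12.8 in the Rbpj-cKO RNAs and 13.3 in both controls, a mean ratio of -0.55 ± 0.13 (adjusted p = 0.160). The probe was not assigned to that form. Beside it, the skeletal muscle markers had a median ratio of -0.53 on array 1 and -0.60 on array 2 and the smooth muscle markers -0.10 and -0.36, and their part in the value of Fhl1 was not tested. L3mbtl3, a corepressor that binds Rbpj directly and recruits the histone demethylase Kdm1a, had 12.5 and 12.2 in the Rbpj-cKO RNAs and 11.96 and 11.89 in the controls. Its mean ratio was 0.40 ± 0.13 (adjusted p = 0.216).

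The remaining 30 genes had mean ratios from that of Rita1 to that of Tle1. Rita1, a protein that carries Rbpj out of the nucleus, had -0.18 ± 0.08, and Tle1, a Groucho-type corepressor, had 0.16 ± 0.05. These are the values of the brightest probes. The 2 probes of Rita1 had -0.18 and -0.08, and the 4 probes of Tle1 ranged from 0.07 to 0.17. The counterparts of the member genes were also near 0. Crebbp, the close relative of Ep300, had -0.0052 ± 0.08. Hdac2 and Hdac3, deacetylases related to Hdac1, had -0.04 ± 0.10 and 0.04 ± 0.08. Ncor1, a large corepressor scaffold, had -0.04 ± 0.01 by its brightest probe, while its 4 probes ranged from -0.16 to 0.10. Snw1, which binds Rbpj in both its states, had 0.04 ± 0.05. Kmt2d, a histone methyltransferase of active Notch targets, had -0.18 and -0.17 by its brightest probe, while its 3 probes ranged from -0.18 to -0.04. Even that brightest probe was dim, with a log2 intensity of at most 8.21 in any RNA.

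**Figure D4:**
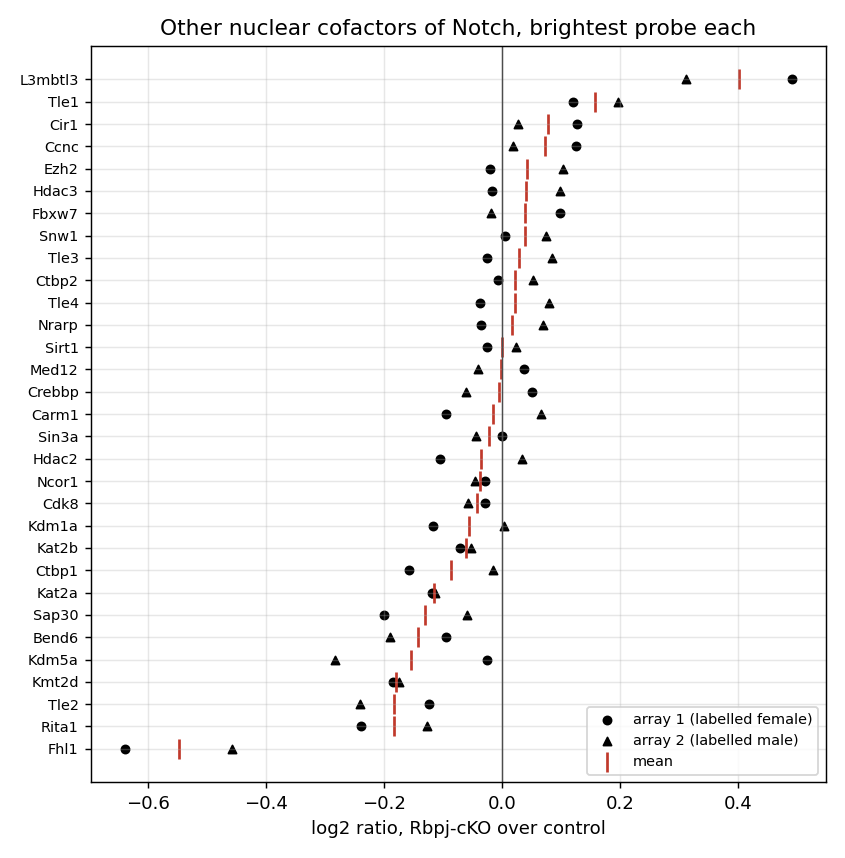
Log2 ratio of Rbpj-cKO over control (x axis) of the further nuclear cofactors reported here (y axis, ordered by mean), with array 1 as a circle, array 2 as a triangle and the mean as a red bar. Fhl1 at -0.55 and L3mbtl3 at 0.40 lie apart, and the other means shown lie between -0.18 and 0.16.

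Receptors, ligands and direct targets give the setting in which the nuclear factors were measured. Of 15 such genes, 4 were lower and 6 higher on both arrays (29.8% and 31.8% of all genes), with a median of 0.02, and 0 passed the adjusted threshold. At an unadjusted p of 0.05, 3 were lower (Notch3, Hey2, Heyl, beside 7.2% of all genes) and 2 higher (Hes5, Hey1, beside 7.12%). Of these, Hes5 and Hey2 were dim, with log2 intensities of at most 7.91 and 8.20 in any RNA. Past the size rule were Heyl as lower (0.794% of all genes) and Hey1 as higher (0.402%). In the same RNAs in which Rbpj stood at a mean ratio of -1.01, Heyl, a target repressor of mural cells, stood at -1.52 ± 0.12 and Hey1 at 1.00 ± 0.09, each with an adjusted p of 0.0905. The receptors Notch1 and Notch2 had 0.03 ± 0.17 and 0.05 ± 0.01 by their brightest probes, and the 2 probes of Notch2 had -0.06 and 0.05. The receptor Notch3 had -0.41 ± 0.03 (limma adjusted p = 0.188) and Notch4 had -0.12 ± 0.21 (adjusted p = 0.692). Nrarp, a feedback inhibitor induced by Notch that also binds the Rbpj complex, had 0.02 ± 0.07.

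The 5 named genes whose pair of ratios was nearest to that of Rbpj (A_66_P139267), by Euclidean distance over the 2 arrays among 15756 genes, were Pgam2, C3, Itih4, Psg16 and Sema5b. Pgam2, the muscle form of phosphoglycerate mutase, had -0.89 on array 1 and -1.07 on array 2, at a distance of 0.036. C3, the central complement protein, had -0.94 and -1.06, at 0.043. Itih4, a plasma protein, had -0.91 and -1.18, Psg16, a pregnancy-specific glycoprotein, -0.97 and -1.03, and Sema5b, a guidance molecule, -1.03 and -1.08. With 2 points per gene this is a description and carries no test.

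The mean ratio of A_66_P139267 stayed between -1.04 and -0.97 and that of A_55_P2022524 between -0.88 and -0.83 over 12 alternatives, and the mean ratios of the other probes stayed between -0.10 and 0.17. In the authors' deposited table the Rbpj probes read -1.81 and -2.13 (A_66_P139267) and -1.60 and -2.09 (A_55_P2022524) on arrays 1 and 2, which were taken as signed fold changes. Both Rbpjl probes and Maml2 A_55_P2083197 read exactly 1 on both arrays in the authors' deposited table, and Maml3 A_55_P2147747 did on array 1. Of all values in that table, 31.8% on array 1 and 31.6% on array 2 were exactly 1.

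**Figure D5:**
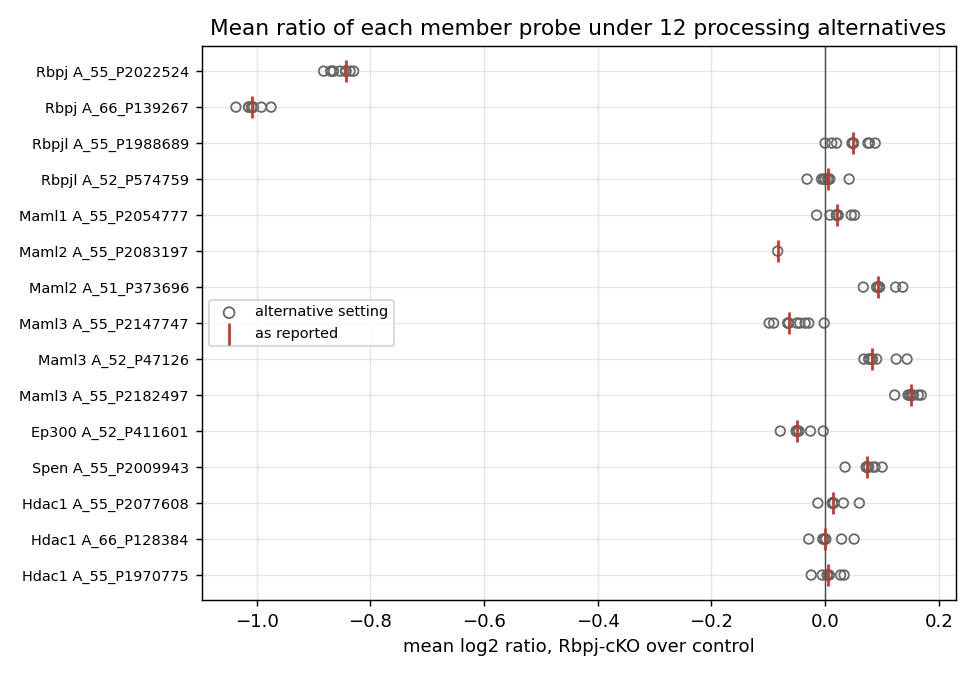
Mean log2 ratio of Rbpj-cKO over control (x axis) of each member probe (y axis) as reported (red bar) and under the processing alternatives (open circles, 12 per probe at most). The circles of the Rbpj probes lie between -1.04 and -0.83, and those of all other probes between -0.10 and 0.17.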

How the data were processed

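Agilent Feature Extraction 10.7.3.1 made the deposited intensity values of each spot, per the submitters' processing notes. Per the file headers, the deposited log ratio is log10 of red over green processed signal. No source used here says how the authors made their deposited series table, a score per probe. No value lay between -1 and 1, so it was read as a signed fold change (correlation of its log2 with the ratios used here 0.951 and 0.923 across probes). Per the labels, peqGOLD RNAPure was used to isolate RNA, which became dye-coupled cRNA.

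Mean signals were corrected by normexp (offset 50, local background medians), then each array was loess-normalized with control spots at weight 0. Outlier-flagged spots (3.34% and 3.12%) were dropped, ratios turned to Rbpj-cKO over control, and spots of a probe averaged. Levels are channel values after Aquantile. Probes were tested against 0 with limma 3.58.1 in R 4.3.3 (two-sided, Benjamini-Hochberg over 28182 probes). Each probe had 1 residual degree of freedom, raised to 4.48 by the prior. Lists used gene names matched through RefSeq accessions (GRCm38.p6) for 28328 of 39429 probes. Any member and any measured list gene could be named, and the 5 genes nearest to Rbpj by Euclidean distance of their ratios. Alternatives changed the background correction, normalization, spot average, flags, filter, prior, pairing of channels and source table, or left out an array. In the list of further cofactors, 1 gene is counted but not reported here by name. The members and lists were chosen with earlier results of these data known. The pipeline was tested on simulated arrays.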

Additional observations from a re-analysis of the deposited data

Results flagged for a closer look

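Of the 14 member probes that passed the filter, 5 had opposite signs on array 1 (labelled female) and array 2 (labelled male), beside 38.9% of all probes kept. The Rbpj-cKO RNA of array 1 goes against its label, so these are reported as differences between the arrays. Labelled sex, dye orientation and pair cannot be told apart as their source. With 1 pair per array, and dyes exchanged between the arrays, these differences were not tested. Ep300 differed by -0.16 (array 1 minus array 2, -0.13 against 0.03). Hdac1 A_55_P2077608 differed by -0.091 (-0.03 against 0.06), Maml1 by -0.089 (-0.02 against 0.06), Rbpjl A_52_P574759 by 0.038 (0.02 against -0.01) and Hdac1 A_66_P128384 by -0.023 (-0.01 against 0.01). At both Rbpj probes the pairs had the same sign. The Maml2 probe that failed the filter, A_55_P2083197, had 0.0082 and -0.17.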

How the results depend on the processing

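Of the 2 Rbpj probes, A_66_P139267 passed the adjusted threshold under 1 of 12 alternatives, eBayes with trend and robust settings (-1.01, limma adjusted p = 0.0387, range over the alternatives 0.0387 to 0.574), which raised the number of member probes called from 0 to 1 and of all probes called from 1 to 61. Over all probes the size rule gave 201 lower and 93 higher. Starting from the log ratio of the scanner it gave 339 and 289, and from the deposited series table it gave 257 and 176. A_55_P2022524 passed under none (0.0715 to 0.574). The count of member probes at least 1.5-fold changed on both arrays was 2 under every alternative. With 1 array left, which allows no test, A_66_P139267 ranged from -1.10 to -0.92 and A_55_P2022524 from -1.003 to -0.68, and the size count was 2 on either array. The ratio within an array pairs the RNAs already. With the 4 channels as separate samples and no replicate block, A_66_P139267 had an adjusted p of 0.0820.

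Of 144 values of the other probes under the alternatives, 12 had the opposite sign, all close to 0. With median centring Hdac1 A_55_P1970775 was -0.024, Hdac1 A_55_P2077608 -0.013 and Maml1 -0.015. With the median of the spots Hdac1 A_55_P1970775 was -0.0050 and Rbpjl A_52_P574759 -0.0029. With no background subtraction Rbpjl A_52_P574759 was -0.0061 and Hdac1 A_66_P128384 0.00068. With the scanner's log ratio they were -0.032 and 0.029, and Hdac1 A_66_P128384 was 0.0013 with offset 16, 0.00028 with scaling between arrays and 0.051 in the deposited series table. The cause was not tested. Without the filter the dim Maml2 A_55_P2083197 was -0.08 (adjusted p = 0.781). The number of arrays and, for Rbpjl, Maml2 A_55_P2083197 and Maml3 A_55_P2147747, signal near background limit the precision.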
